A study of Sus scrofa with 40 samples.

Results

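Gene expression in the liver of feed-restricted pigs was set against that in their backfat, and the tissue contrast was then compared with the one in pigs fed ad libitum. All 10 arrays of restricted liver and all 10 of restricted backfat were taken by their sample titles, out of 40 arrays in the series, and every probe set other than the Affymetrix controls was eligible. The pigs were prepubertal Yorkshire gilts, 6 months old, from lines with low or high residual feed intake (RFI), the part of feed consumption that body size and gain do not account for, low RFI meaning efficient. Restricted pigs were given 80% of maintenance feed for 8 days, 5 from each line, and 5 pigs of each line ate ad libitum over the same time. The groups were restricted liver (5 low RFI, 5 high RFI), restricted backfat (5 and 5), ad libitum liver (5 and 5) and ad libitum backfat (5 and 5). Per the labels, every animal carried 1 copy of a variant in MC4R, the melanocortin receptor that regulates appetite, and backfat was the middle layer over rib 10. The design gives 20 pigs for both tissues, but the labels do not say which liver and backfat arrays came from the same pig.

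The liver makes most plasma proteins, stores and releases glucose, disposes of nitrogen as urea, and clears bile acids and foreign compounds. Backfat is a subcutaneous store of triglyceride. In pigs, adipose tissue rather than liver is the main site of fatty acid synthesis from glucose, so that lipogenic enzymes are normally more abundant in fat, and a feed deficit is known to shift adipocytes away from fat synthesis and towards fat release.

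Values are the authors' linear intensities in arbitrary units. The contrast is the mean log2 intensity of liver minus that of backfat, with both lines weighted equally, and the change of contrast is the restricted contrast minus the ad libitum contrast. A difference was called where the adjusted p of limma's moderated test (Benjamini-Hochberg, over 17174 probe sets) was under 0.05. A called change of contrast was named narrowed where the contrast kept its sign and was smaller under restriction, widened where it kept its sign and was larger, and turned where its sign was opposite under the 2 diets. Genes were represented by their probe set with the highest mean, which gave 5979 tested genes.

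Marker genes bore out the tissue labels, with qualifications for backfat. The mean log2 intensity of 19 hepatocyte markers was 14.53 to 15.02 on restricted liver arrays, against 5.62 to 8.00 on 9 of the 10 restricted backfat arrays. The remaining backfat array, low RFI replicate 5, stood at 11.93, and ad libitum backfat lay between 4.90 and 6.59. The mean of 8 adipocyte markers was 5.19 to 5.97 in restricted liver and 11.06 to 11.83 in restricted backfat. Skeletal muscle markers (22 genes) ranged from 5.12 to 5.87 in restricted liver, from 6.31 to 12.50 in restricted backfat and from 5.77 to 11.86 in ad libitum backfat, so muscle RNA varied from one backfat array to the next under both diets. The log2 ratio of 3' to 5' GAPDH control probe sets, a measure of RNA quality and labelling, averaged 1.14 ± 0.268 in restricted liver and 1.88 ± 0.521 in restricted backfat, against 0.996 ± 0.219 in ad libitum liver and 1.19 ± 0.365 in ad libitum backfat (SD, n = 10 each). Arrays numbered 1 and 2 also had a higher actin 3' to 5' ratio than those numbered 3 to 5 (2.18 and 1.29 in restricted liver, 2.34 and 1.60 in restricted backfat). Array medians were 136 to 161 in restricted liver and 168 to 190.1 in restricted backfat.

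**Figure D1:**
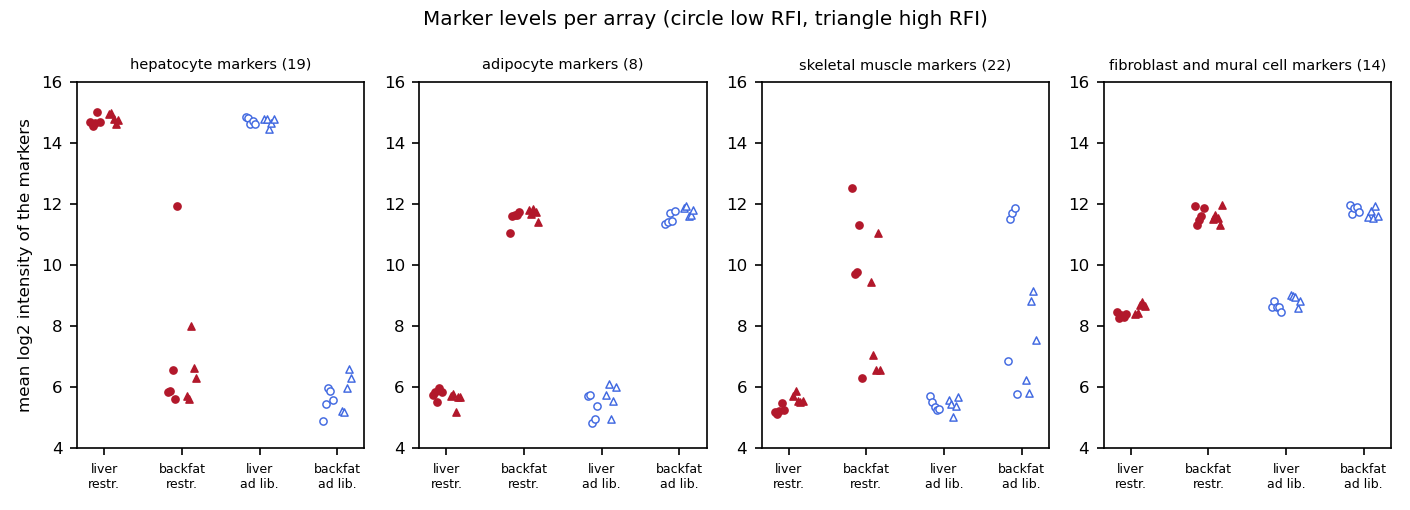
Mean log2 intensity of 4 marker lists (number of genes in brackets) on each array, by tissue and diet. Filled red symbols are restricted and open blue symbols ad libitum pigs. Hepatocyte markers separated the tissues, 1 restricted backfat array stood at 11.93, and skeletal muscle markers were scattered in backfat.

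Most of the transcriptome differed between restricted liver and restricted backfat. Of 17174 probe sets, 12609 were called (73.4%), 4604 higher in liver (26.8%) and 8005 lower (46.6%). More than 2-fold differences were called for 2373 higher (13.8%) and 4248 lower (24.7%), and more than 8-fold ones for 640 higher (3.73%) and 642 lower (3.74%), together 6621 (38.6%) and 1282 (7.46%). Over genes, 4433 of 5979 were called (74.1%). Of all 5979, 1980 were higher in liver (33.1%), 2453 were lower (41%), 275 were more than 8-fold higher (4.6%) and 188 more than 8-fold lower (3.14%). The share of calls that were higher in liver depended on the scaling. It was 36.5% with the authors' scaling, where the median contrast over all probe sets was -0.27, against 46.3% after quantile normalization (5863 higher, 6794 lower, median -0.07) and 52.4% after centring each array on its median (6602 higher, 5987 lower, median 0.05). Contrasts smaller than these shifts have no settled direction, and quantile normalization moved single gene lists in either direction. Restricted liver and restricted backfat arrays did not overlap for 5899 probe sets (34.3%), 2101 with liver above (12.2%) and 3798 with liver below (22.1%). In bulk tissue, fewer cells of a type and less RNA per cell cannot be told apart.

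The contrast held its shape across the diets. In ad libitum pigs 12246 probe sets were called (71.3%), 6092 beyond 2-fold (35.5%) and 1270 beyond 8-fold (7.39%). The restricted contrast correlated with the ad libitum contrast at r = 0.968 across 17174 probe sets, which share the platform and probe sequences and are not independent. Of 6621 probe sets called with more than 2-fold differences under restriction, 99.6% had the same sign in ad libitum pigs, and 5320 were also called beyond 2-fold in the same direction (80.4% of these and 87.3% of those in ad libitum pigs). At 8-fold, 1075 were shared (83.9% of the restricted and 84.6% of the ad libitum calls). For 12002 probe sets (69.9%) the 95% confidence interval of the change of contrast lay within 2-fold in either direction. Large contrasts were less tightly bounded. The interval lay within 2-fold for 2831 of those shared beyond 2-fold (53.2%) and for 266 of those shared beyond 8-fold (24.7%). Only 100 probe sets were called in opposite directions under the 2 diets.

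A change of contrast was called for 1480 probe sets (8.62%). Of these, 423 narrowed (2.46%), 674 widened (3.92%) and 383 turned (2.23%). A turn rests on the signs of the 2 estimates, and neither contrast had to be called. Only 100 probe sets were called under both diets with opposite signs. Among genes, 725 were called (12.1%), with 199 narrowed (3.33%), 315 widened (5.27%) and 211 turned (3.53%). Changes towards liver made up 58.2% of the calls with the authors' scaling, 61.8% after quantile normalization and 76.3% after median centring. The diet effect itself, from the same arrays, was called for 258 probe sets in liver (1.5%) and 3404 in backfat (19.8%). With both control ratios as covariates, an alternative chosen after seeing the data, these counts were 488 and 1721, and with the replicate number as a factor liver had 566. Over genes they were 127 in liver (2.12%; 53 fell, 0.886%, and 74 rose, 1.24%) and 1420 in backfat (23.7%; 842 fell, 14.1%, and 578 rose, 9.67%). Among narrowed genes that were lower in liver, the median diet effect was 0.09 in liver and -0.54 in backfat. Among widened genes that were higher in liver it was 0.08 in liver and -0.53 in backfat, and among turned genes that were higher in restricted liver it was 0.12 and -0.54. In the opposite classes the median backfat effect was positive. The median diet effect was -0.16 in liver and 0.57 in backfat for the 65 narrowed genes that were higher in liver, -0.15 and 0.49 for the 96 widened genes that were higher in backfat, and -0.15 and 0.55 for the 38 turned genes that were higher in restricted backfat. Within arrays numbered 1 and 2, 219 changes were called, and within those numbered 3 to 5, 553. With both control ratios as covariates 1123 were called.

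**Figure D2:**
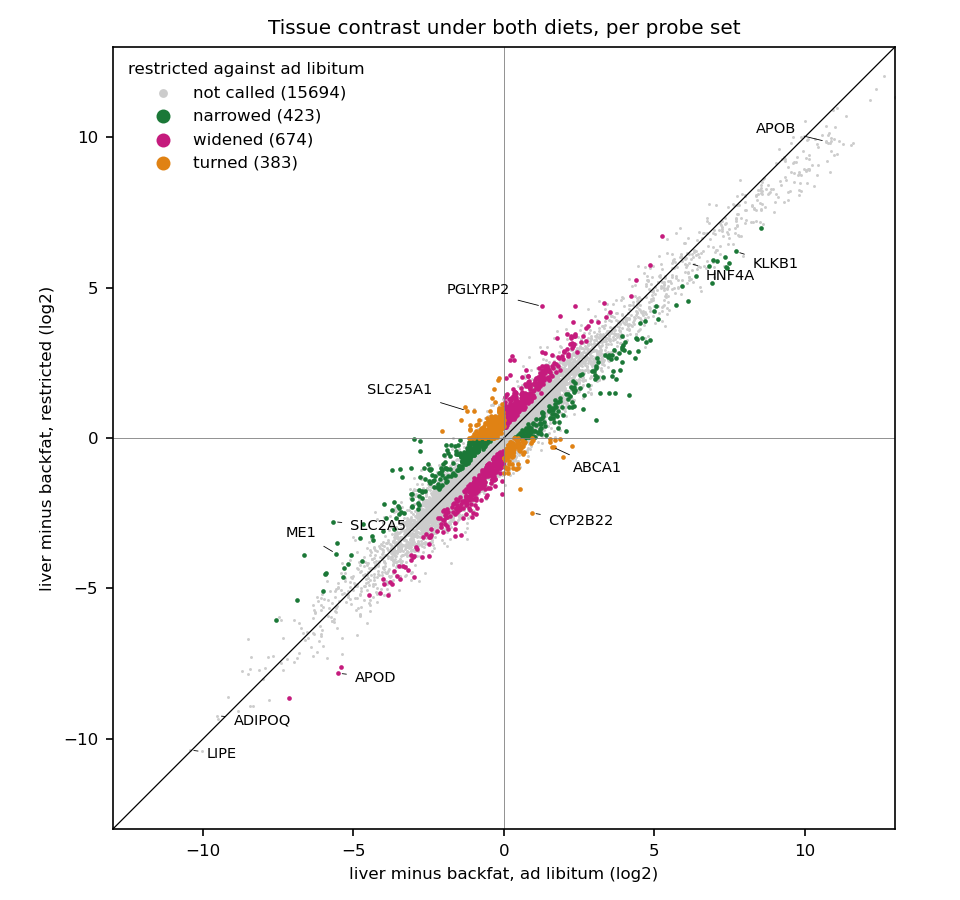
Liver minus backfat (log2) in restricted pigs (vertical axis) against the same contrast in ad libitum pigs (horizontal axis), 1 point per probe set. The 423 narrowed, 674 widened and 383 turned probe sets are coloured. The line marks equal contrasts, and most points lie close to it (r = 0.968).

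Liver identity and plasma protein genes had large contrasts under both diets. All 19 hepatocyte markers were higher in restricted liver (medians 8.47 restricted, 9.81 ad libitum), and the median change of -1.02 was -0.49 without low RFI backfat replicate 5. Of 25 tested plasma carrier and acute phase proteins, 23 were higher in restricted liver and 2 lower, with a median contrast of 7.63 under restriction and 7.78 ad libitum, against -0.09 and -0.15 over all genes. Haptoglobin (HP), which binds free haemoglobin, had intensities of 31603 to 50817 (median 36577) in restricted liver and 10.4 to 18793 (median 114) in restricted backfat. The groups did not overlap, but the highest backfat value came from a wide spread in which only 5 of 10 arrays were above their own 40th percentile and the second highest was 415. The HP contrast was 8.47 (SE 0.79, adjusted p = 4.03e-12), and 9.35 without low RFI backfat replicate 5, against 10.09 ad libitum. Albumin (ALB), the main osmotic and carrier protein of plasma, ran at 29576 to 51144 (median 38144) in restricted liver and 77.3 to 24616 (median 236) in restricted backfat, where the second highest array was at 2557. Its contrast was 6.76 under restriction and 7.78 ad libitum, and the change of -1.02 (adjusted p = 0.559) became -0.28 without low RFI backfat replicate 5. Vitronectin (VTN, 7.21), transferrin (TF, 7.23), fetuin A (AHSG, 7.08) and inter-alpha-trypsin inhibitor heavy chain 4 (ITIH4, 6.95) were also among the largest contrasts measured on both sides, as were complement factors CFB (7.15) and C5 (6.79) and the gene listed as LOC396684 (6.97). Without low RFI backfat replicate 5, these contrasts were 7.73 for VTN, 7.88 for TF, 7.53 for AHSG, 7.38 for ITIH4, 7.54 for CFB and 7.39 for LOC396684, and that of ALB was 7.50. A1BG, a plasma glycoprotein, was above the 40th percentile on 1 of 10 restricted backfat arrays. Restricted liver was at least 148-fold higher once values under that percentile were raised to it. The lowest contrast of the list was that of SAA2 (-0.60), where another probe set of the gene was called the opposite way.

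The change in this list was small beside its contrast. Its median was -0.53 over all arrays and -0.16 without low RFI backfat replicate 5, and 2 members narrowed. SERPINA6, the corticosteroid-binding globulin of plasma, stood at 1338 to 8156 (median 5234) in restricted liver and 50.4 to 147 (median 75.9) in restricted backfat, where 1 of 10 arrays was above the 40th percentile, against 4762 to 16179.5 (median 11065) and 45.7 to 78.5 (median 60.8) in ad libitum pigs. It fell with restriction within liver by 1.29 (adjusted p = 0.00553), and its contrast was 5.70 restricted and 7.39 ad libitum (change -1.69, adjusted p = 0.00249). ITIH1, a hyaluronan-binding plasma protein, narrowed from the other side. Its restricted backfat intensities were 170.1 to 1473 (median 412), against 9.38 to 266 (median 153) ad libitum, and its contrast was 5.81 restricted and 7.48 ad libitum (change -1.67, adjusted p = 0.0203; -1.49 without low RFI backfat replicate 5).

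Coagulation and fibrinolysis genes were called in both directions. Of 18 tested, 11 were higher in restricted liver (33.1% of all genes) and 6 lower (41%), with medians of 4.75 restricted and 5.29 ad libitum. The median change of -0.83 was -0.36 without low RFI backfat replicate 5. Protein C (PROC), an anticoagulant protease, was at 15028 to 21763 (median 17272) in restricted liver and above the 40th percentile on 1 of 10 restricted backfat arrays, at least 134-fold higher in liver. Tissue factor (F3), which starts clotting outside the vessel, was at 29.2 to 109 (median 71.9) in restricted liver, above the 40th percentile on 2 of 10 arrays, and 1729.9 to 5069 (median 3344) in restricted backfat (contrast -5.60). Plasma kallikrein (KLKB1) was the 1 member with a called change. Its liver values were 5530.5 to 11935 (median 10264) restricted and 8490.4 to 13082 (median 11483) ad libitum. Its backfat values were 81.3 to 344 (median 126) restricted and 26.9 to 154 (median 49.2) ad libitum. The 40th percentile of backfat arrays was 101 to 119 restricted and 91.5 to 107 ad libitum, so the backfat side of this change is near or under that level. The contrast narrowed to 6.20, against 7.71 (change -1.51, adjusted p = 7.75e-04).

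Called changes among complement genes all ran towards backfat. Of 24 tested genes, 20 were higher in restricted liver and 4 lower, the median was 3.20 restricted and 4.27 ad libitum, and 7 changes were called (12.1% of all genes). The median change was -0.45, and -0.32 without low RFI backfat replicate 5, where 6 were called. Backfat's own diet effect was called up in 12 members (9.67% of all genes) and liver's in none. Clusterin (CLU), an extracellular chaperone and complement inhibitor, was at 23922 to 33500.0 (median 25871) in restricted liver and 1910.3 to 4369 (median 2595) in restricted backfat, against 25086 to 29245 (median 26995) and 688 to 1859 (median 1244) ad libitum. Its backfat values did not overlap between diets, and its contrast was 3.32 restricted and 4.58 ad libitum (change -1.27, SE 0.19, adjusted p = 4.51e-05). C1S, the protease of the first classical component, had contrasts of 0.93 and 1.49, and its partner C1R had 2.24 and 2.92. C2 narrowed by -1.14 and C4A by -0.88. Complement factor D (CFD, adipsin), a protease made by adipocytes, and the membrane regulator CD46 were higher in backfat and widened. CFD intensities were 1268 to 1984 (median 1478) in restricted liver and 5076 to 8623 (median 6057) in restricted backfat, with contrasts of -2.03 restricted and -1.58 ad libitum.

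Apolipoproteins and lipoprotein-handling genes were mostly higher in liver, 13 of 19 with 3 lower (medians 5.13 and 4.89). The 3 called changes were a share near that of all genes (12.1%), and the median change of -0.68 was -0.25 without low RFI backfat replicate 5. APOA1, the main protein of high-density lipoprotein, narrowed to 2.39, against 3.06 ad libitum (adjusted p = 0.00246), with backfat values of 4331 to 11815 (median 7057) restricted and 2752 to 4637 (median 4224) ad libitum. APOD, a lipocalin found in many peripheral tissues, was below the 40th percentile on all but 1 of the restricted liver arrays and at 4434 to 18615 (median 11809.6) in restricted backfat, against 1078 to 6919 (median 2364) in ad libitum backfat. Its contrast widened to -7.82, against -5.51 (adjusted p = 9.12e-04). ABCA1, which exports cholesterol from cells to APOA1, turned. Its intensities were 1603 to 3027 (median 2317) in restricted liver and 1921 to 3757 (median 2702) in restricted backfat, which overlapped, and 1790.3 to 3203 (median 2146) and 429.8 to 1717 (median 657) ad libitum, where every liver array was above every backfat array. The contrast was -0.29 under restriction (adjusted p = 0.153) and 1.60 ad libitum (change -1.89, adjusted p = 8.84e-06). APOB, the structural protein of very low-density lipoprotein, had contrasts of 9.86 (10.60 without low RFI backfat replicate 5; 2 of 10 restricted backfat arrays above the 40th percentile) and 10.72, and its change of -0.87 was -0.12 without that array.

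Enzymes of bile acid and drug metabolism were mostly higher in liver. Bile acid genes were higher in restricted liver in 10 of 10 tested (medians 4.17 restricted, 3.65 ad libitum), and 3 widened, namely AMACR (3.39 and 2.23), ACOX2 (4.18 and 3.53) and HSD17B4 (1.15 and 0.49), all peroxisomal enzymes of side-chain shortening. CYP7A1, the rate-limiting enzyme of bile acid synthesis, was at 329 to 3431 (median 1202) in restricted liver and below the 40th percentile on all 10 restricted backfat arrays, which makes it at least 10.9-fold higher. Drug and xenobiotic metabolism genes were higher in 33 of 37 and lower in 2 (medians 4.02 and 3.40). Among them 2 narrowed (3.33% of all genes), 4 widened (5.27%) and 2 turned (3.53%). The median change over these 37 genes was -0.24, opposite in direction to the difference of the medians. SULT2A1, a sulfotransferase of steroids and bile acids, widened. It ran at 11194 to 26952 (median 16196) in restricted liver and 57.1 to 942 (median 146) in restricted backfat, against 8727 to 17292 (median 14019.8) and 162 to 561 (median 319.6) ad libitum (contrasts 6.73 and 5.26, adjusted p of the change 0.0253).

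CYP2B22, a cytochrome P450 of drug metabolism, had the largest turn. Its intensities were 26.4 to 865 (median 385) in restricted liver and 1087 to 5404 (median 1480.3) in restricted backfat, with no overlap, and 397 to 1665 (median 763) in ad libitum liver and 187 to 1489 (median 433) in ad libitum backfat, with overlap. The contrast was -2.49 (adjusted p = 5.83e-07) under restriction and 0.93 (adjusted p = 0.0324) ad libitum, a change of -3.42 (SE 0.55, adjusted p = 8.41e-05). Backfat rose by 2.06 with restriction (adjusted p = 1.80e-04), and the liver diet effect was -1.36 (adjusted p = 0.0655). SULT1A3, a phenol sulfotransferase, had contrasts of -1.68 restricted and 0.53 ad libitum. AKR1CL1, an aldo-keto reductase, ran the other way, with 1.91 and -0.18, but 2 other probe sets of this gene were called with the opposite tissue contrast.

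Urea cycle and amino acid genes were higher in restricted liver in 27 of 32 and lower in 4 (medians 3.08 restricted, 2.83 ad libitum). Ornithine transcarbamylase (OTC) of the urea cycle was at 4714 to 9158 (median 7968) in restricted liver and below the 40th percentile on all 10 restricted backfat arrays, at least 66.6-fold higher. Betaine-homocysteine methyltransferase (BHMT), with 1 of 10 restricted backfat arrays above the 40th percentile, was at least 177-fold higher. Of the 10 called changes (12.1% of all genes), 8 were widenings (5.27%). They included BCKDHB, a subunit of the branched-chain ketoacid dehydrogenase, with 3909.6 to 6909 (median 5022) in restricted liver and 905 to 1578 (median 1166) in restricted backfat, against 3438 to 6724 (median 4870.3) and 1532 to 4419 (median 2875) ad libitum (contrasts 2.06 and 0.79, adjusted p of the change 6.37e-05). IVD (1.82, a change of 0.82), PCCA (1.76 and 1.16) and MUT (2.19 and 1.33), further enzymes on the way from branched-chain amino acids to the citric acid cycle, widened likewise, as did AHCY, FAH, GOT1 and GOT2. BCAT2, the branched-chain aminotransferase of extrahepatic tissues, was lower in liver and narrowed to -1.05, against -2.46 (adjusted p = 6.24e-06). SHMT1, of serine and folate metabolism, narrowed to 1.75, against 2.81. Backfat's diet effect was called down in 15 of the 32 members (14.1% of all genes) and up in 3.

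Most of backfat's defining genes also kept the direction of their contrast. Of 8 tested adipocyte markers, 7 were lower in restricted liver and none was higher (medians -7.16 restricted, -7.89 ad libitum), and CFD was the 1 that changed. Adiponectin (ADIPOQ), the insulin-sensitising adipokine, was at 18897 to 30948 (median 26585) in restricted backfat and below the 40th percentile on all 10 liver arrays, at least 294-fold lower in liver once values under that percentile were raised to it. FABP4, the fatty acid carrier of adipocytes, was at 18.5 to 232 (median 104) in restricted liver and 17411 to 22646 (median 20738) in restricted backfat (contrast -7.85, adjusted p = 5.06e-22). Hormone-sensitive lipase (LIPE) was at least 68.2-fold lower in liver, the adipogenic receptor PPARG at least 45-fold and the lipid droplet protein CIDEA at least 31.3-fold. Contrasts measured on both sides were also large for FABP3 (-6.01), FABP5 (-5.70), myocilin (MYOC, -6.09), the glycolytic aldolase ALDOC (-5.82), OXCT1, which activates ketone bodies for oxidation (-5.80), IGFBP6 (-5.22), TSPO (-5.20), LGALS1 (-4.92) and PAQR6 (-5.20). The one-sided genes in backfat further included F2RL2, MFAP5, CILP and SAL1, and those in liver UOX, CPN1, PDZK1, TDH, DAO, GULO and LEAP2, with liver at least 22.3- to 48.7-fold higher.

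Lipolysis, fatty acid uptake and binding showed no called change in any of 15 tested genes, against 12.1% of all genes. Of the 15, 11 were lower in restricted liver and 2 higher (medians -4.07 restricted, -4.16 ad libitum). LPL, which frees fatty acids from circulating triglyceride, had 4205 to 7498 (median 6346) in restricted backfat and 9886 to 17734 (median 11860.0) in ad libitum backfat. Its backfat intensities did not overlap between diets (diet effect -1.08, adjusted p = 0.0209), while the change of contrast was 0.45 (adjusted p = 0.665), with liver below the 40th percentile on all but 1 of the restricted arrays. PNPLA2, the first lipase of triglyceride breakdown, had contrasts of -3.28 and -3.04. Triglyceride synthesis and lipid droplet genes were 9 higher (33.1% of all genes) and 9 lower (41%) of 18. AGPAT1, an acyltransferase of glycerolipid synthesis, narrowed (-3.11 and -4.03). Glycerol kinase (GK), which lets a cell reuse glycerol, widened (1.08 and 0.03). LPIN1, a phosphatidate phosphatase, widened to -3.13, against -2.03, with an adjusted p of 0.0416, and 28 of 53 alternatives ended that call.

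**Figure D3:**
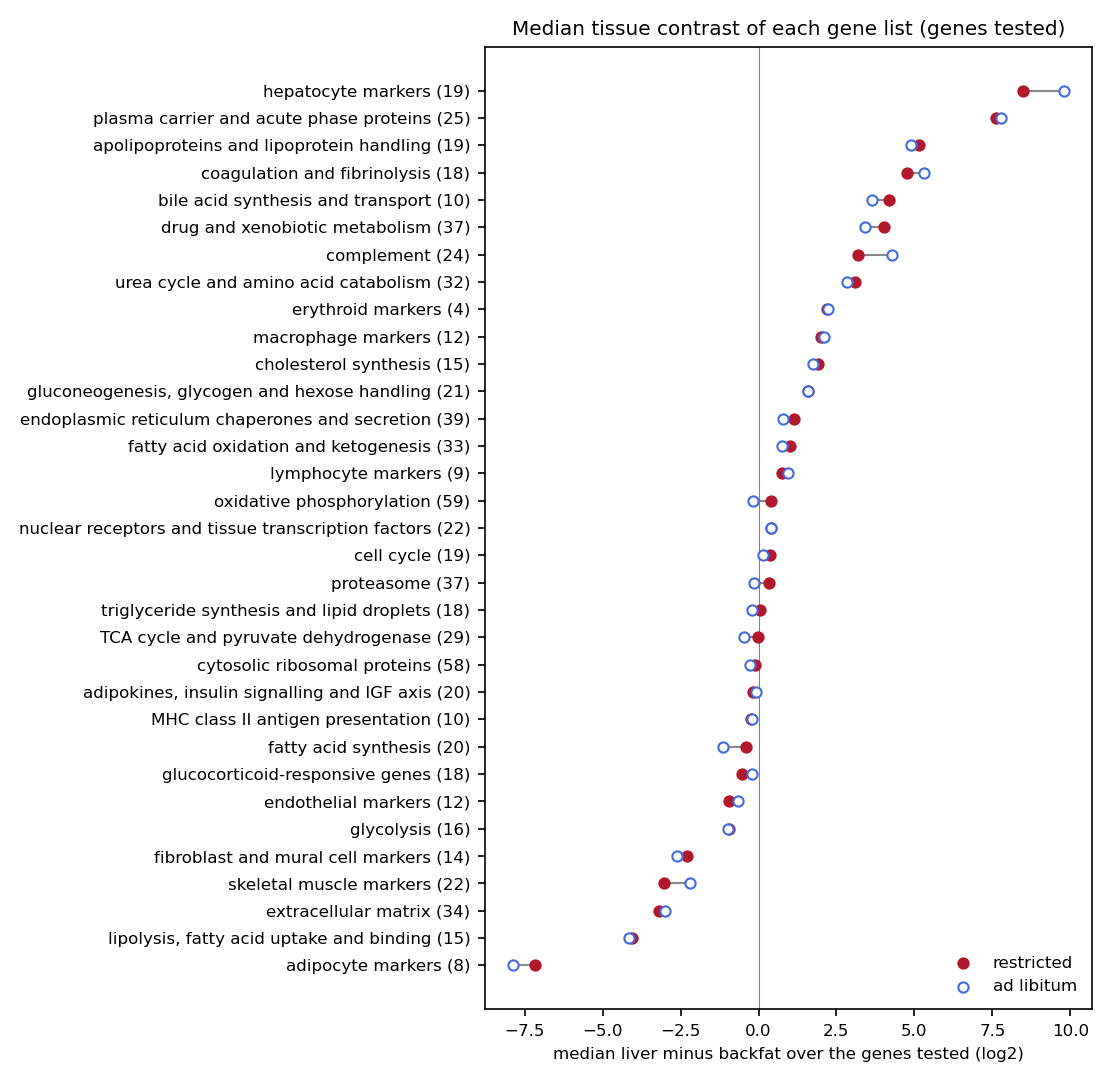
Median liver minus backfat contrast (log2) over the tested genes of each of 33 lists, in restricted (filled red) and ad libitum (open blue) pigs. Hepatocyte and plasma protein lists lie far to the right and adipocyte markers far to the left under both diets, while oxidative phosphorylation and the proteasome cross 0.

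The backfat excess of fatty acid synthesis genes narrowed. Of 20 tested genes, 5 were higher in restricted liver (33.1% of all genes) and 10 lower (41%). The median contrast was -0.39 restricted and -1.14 ad libitum. A change was called for 8 (12.1% of all genes), all towards liver (5 narrowed, 3 turned). The diet effect was called down in 13 members in backfat (14.1% of all genes) and in 6 in liver (0.886%), and up in none. Fatty acid synthase (FASN) ran at 1231 to 4081 (median 1844) in restricted liver and 824 to 7468 (median 2924) in restricted backfat, which overlapped. In ad libitum pigs it was at 1881 to 8263 (median 5012) in liver and 12721 to 22763 (median 18509) in backfat, with no overlap. Both tissues fell with restriction, liver by 1.25 and backfat by 2.76, and the contrast was -0.38 (adjusted p = 0.227) against -1.90 ad libitum (change 1.51, SE 0.41, adjusted p = 0.0149). Malic enzyme (ME1), a source of NADPH for lipid synthesis, was at 73.9 to 484 (median 161) in restricted liver and 1360.0 to 3676 (median 2441) in restricted backfat, against 209.9 to 605 (median 299) and 6164 to 20921 (median 15835) ad libitum. No liver array reached a backfat array under either diet, and the contrast was -3.84 restricted and -5.58 ad libitum (adjusted p of the change 3.68e-04).

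The other called members feed the same route. SLC25A1, which exports citrate from mitochondria, was at 2694 to 4835 (median 3819) in restricted liver and 1132 to 2873 (median 2067) in restricted backfat, against 2530.2 to 5297 (median 4225) and 5590.1 to 16343 (median 9785) ad libitum. The tissues overlapped under restriction and did not ad libitum, and the contrast turned (0.90 against -1.21, both called, adjusted p of the change 1.81e-06). The pentose phosphate enzymes PGD (-1.86 and -3.05), TKT (-1.04 and -1.88) and TALDO1 (-0.54 and -1.53) narrowed. IDH1, another NADPH source, turned (0.04 and -0.80), as did ECHDC1, which removes side products of acetyl-CoA carboxylase (0.45 and -0.92). For ACACA, the carboxylase itself, the probe set was below the 40th percentile on all restricted liver arrays and on 7 of 10 in backfat, and its change was 0.21 (adjusted p = 0.895). SCD and ELOVL6, which desaturate and elongate the product, had changes of 0.81 and -0.59 that did not pass. The list's median change was 0.98 on arrays 1 and 2 (5 members called) and 0.34 on arrays 3 to 5 (7 called).

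Genes of gluconeogenesis, glycogen and hexose handling were 11 higher (33.1% of all genes) and 8 lower of 21 in restricted liver. The share that was lower is near that of all genes (41%). Medians were 1.58 and 1.60, with a median change of -0.03. The 4 called changes (12.1% of all genes) were narrowings, 3 of them in genes higher in backfat. SLC2A5, the fructose transporter, was below the 40th percentile on all 10 restricted liver arrays at 4.4 to 72.6 (median 47.6), and was at 105 to 525 (median 205) in restricted backfat, against 511 to 3166 (median 1620.1) in ad libitum backfat. Backfat ranges overlapped between the diets, and the backfat diet effect was -2.58 (adjusted p = 2.65e-05). Restricted liver was at least 2.66-fold lower than restricted backfat. Hexokinase 1 (HK1) was at 402 to 641 (median 459.7) in restricted liver and 1331 to 2123 (median 1595) in restricted backfat, against 1929.8 to 5629.8 (median 3864) in ad libitum backfat (contrasts -1.74 and -2.81). SLC2A1, the basal glucose transporter, had -0.15 and -1.04. KHK, the fructose-phosphorylating enzyme, was higher in liver under both diets and narrowed (4.39 and 5.06), with no called fall in liver. PCK1, the gluconeogenic entry enzyme, had contrasts of 2.23 and 2.86. Glycolysis had 4 higher (33.1% of all genes) and 9 lower (41%) of 16, with medians of -0.96 under both diets and a median change of 0.49. Its 5 called changes (12.1% of all genes) were all towards liver, and 8 members fell in backfat (14.1% of all genes). HK1, which both lists hold, narrowed, and PGK1 (0.63 and -0.25), ENO1 (0.71 and -0.09), GPI and TPI1 turned. The insulin-regulated transporter SLC2A4 overlapped between tissues, was above the 40th percentile on 6 of 10 restricted liver and 5 of 10 restricted backfat arrays, and another of its probe sets was called the opposite way.

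**Figure D4:**
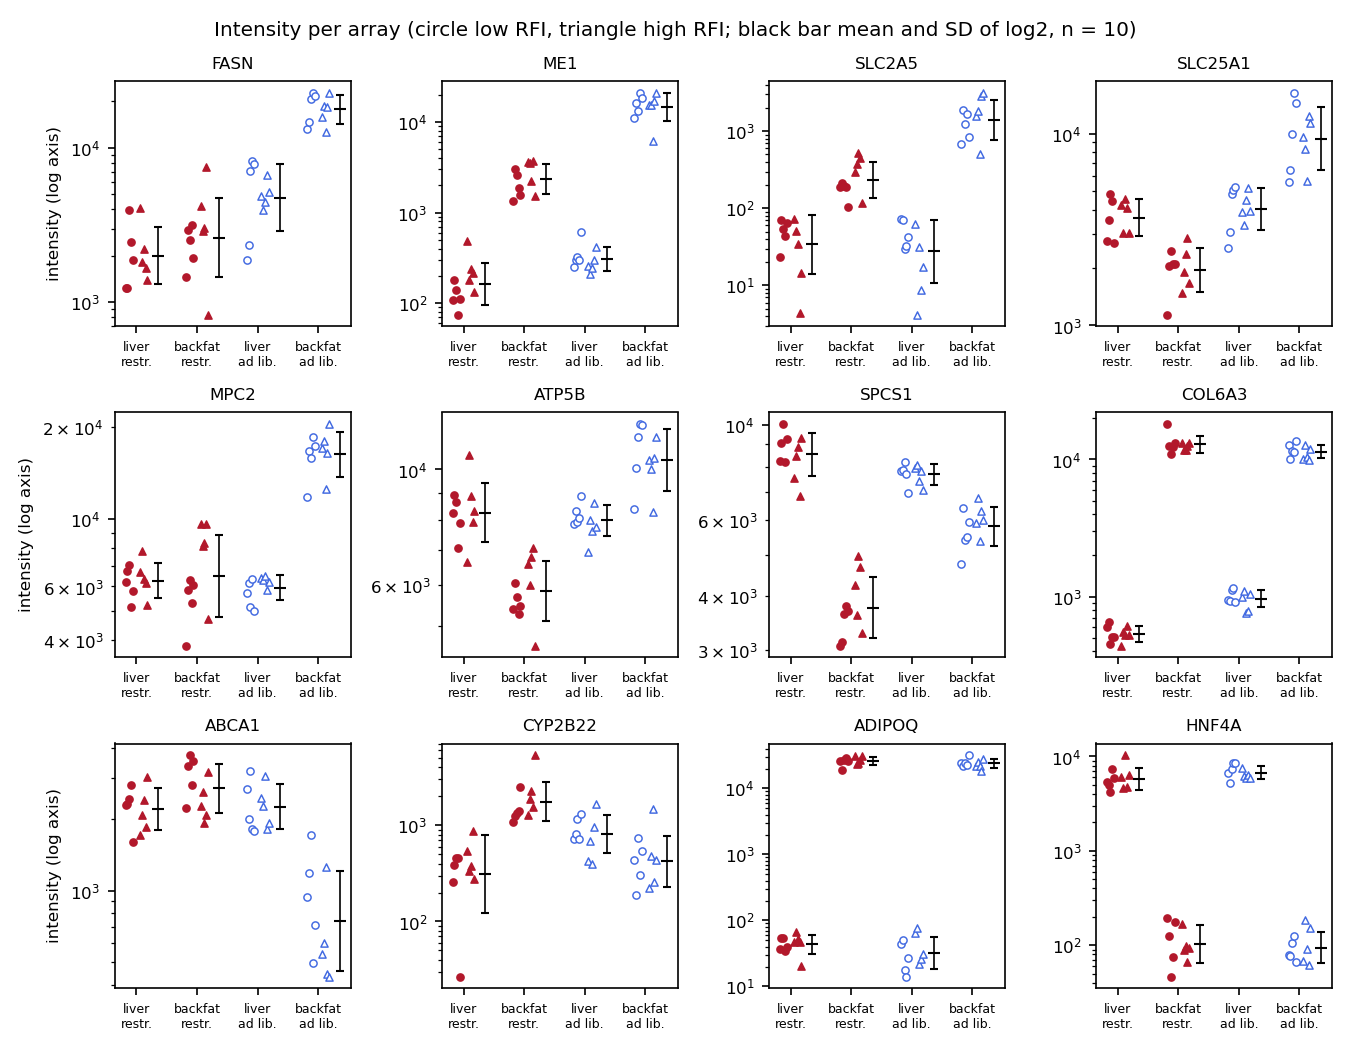
Intensity of 12 genes (log axes) on each array, in restricted liver, restricted backfat, ad libitum liver and ad libitum backfat. Circles are low RFI and triangles high RFI pigs, filled red where restricted and open blue where ad libitum, and the black bar is the mean and SD of log2 intensity over 10 arrays. FASN, ME1, SLC2A5, SLC25A1 and MPC2 were lower in restricted than in ad libitum backfat, while ADIPOQ and HNF4A kept their tissue gap.

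Mitochondrial respiration was the list with the most turned genes. Of 59 tested genes of oxidative phosphorylation, 40 were higher in restricted liver (33.1% of all genes) and 3 lower (41%). The median contrast was 0.41 restricted and -0.17 ad libitum. A change was called for 45 (12.1% of all genes), all towards liver. Of these, 29 turned (3.53% of all genes), 13 widened (5.27%) and 3 narrowed (3.33%). Backfat's diet effect was called down in 47 members (14.1% of all genes) and liver's in none in either direction. ATP5B, the catalytic subunit of ATP synthase, ran at 6643 to 10651 (median 8282) in restricted liver and 4579 to 7073 (median 5842) in restricted backfat, against 6956 to 8895 (median 7967) and 8299 to 12245 (median 10466) ad libitum. The tissues overlapped under both diets, but medians changed order, with contrasts of 0.50 and -0.39 (change 0.88, SE 0.11, adjusted p = 4.70e-06). Complex I subunits behaved alike in direction, with NDUFAB1 at 0.12 and -0.99, NDUFA10 at 0.29 and -0.77, NDUFS7 at 0.25 and -0.78, and NDUFB11, already higher in ad libitum liver, at 1.36 and 0.62. All 4 subunits of succinate dehydrogenase changed, SDHC (0.95 and -0.17) and SDHD (0.58 and -0.37) by turning and SDHA (0.61 and 0.02) and SDHB (1.30 and 0.69) by widening. Cytochrome c (CYCS), the electron carrier, had 0.45 and -0.87.

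The size of these contrasts is close to the scaling shifts, so their direction under 1 diet is less firm than their change. The restricted median was 0.26 after quantile normalization and 0.73 after median centring, and NDUFAB1 was called lower in restricted liver (-0.21) after quantile normalization. The median change was 0.68, 0.65 after quantile normalization, 0.77 after median centring, 0.67 for the arrays numbered 1 and 2 (18 members called) and 0.69 for those numbered 3 to 5 (29 called). With both control ratios as covariates it was 0.57 with 39 called, and with the skeletal muscle signal of backfat as a covariate 0.70 with 45 called. The GAPDH 3' to 5' ratio of backfat was 1.88 restricted and 1.19 ad libitum, and beyond these fits its part in the result was not tested.

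The citric acid cycle and pyruvate dehydrogenase changed with it. Of 29 genes, 13 were higher (33.1% of all genes) and 11 lower (41%) in restricted liver (medians -0.01 restricted, -0.48 ad libitum). A change was called for 15 (12.1% of all genes), all towards liver. MPC2, a subunit of the mitochondrial pyruvate carrier, was at 5152 to 7826 (median 6277) in restricted liver and 3818 to 9605 (median 6178) in restricted backfat, which overlapped. Ad libitum it was at 4972 to 6484 (median 6203) in liver and 11819.6 to 20577 (median 16934) in backfat, with no overlap. The contrast was -0.05 against -1.46 (adjusted p of the change 2.81e-07), and after median centring the restricted contrast was 0.27 and called. PDHB, of pyruvate dehydrogenase, turned (0.45 and -1.13), its partner DLAT narrowed (-1.13 and -2.08), and malate dehydrogenase MDH2 widened (1.67 and 0.56). Citrate synthase (CS) stayed lower in liver and narrowed (-1.57 and -2.06).

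Fatty acid oxidation was less uniform. Of 33 genes, 21 were higher (33.1% of all genes) and 5 lower (41%) in restricted liver (medians 1.01 and 0.74). Among them 6 widened, 3 narrowed and 2 turned, where 12.1% of all genes had a called change. ECI1 and ECHS1, enzymes of the beta-oxidation spiral, widened. ECI1 was at 5987 to 10482 (median 9224) in restricted liver and 2150.1 to 3176 (median 2568) in restricted backfat, against 8560.3 to 13289.7 (median 11710.1) and 4286 to 8691 (median 7140.3) ad libitum (contrasts 1.76 and 0.75, adjusted p of the change 2.50e-05). ECHS1 had 1.74 and 0.74, and the electron carrier ETFA 1.89 and 1.17. CPT1A, the gate for fatty acid entry into mitochondria, narrowed to 0.00, against 0.96 (adjusted p = 0.0174), and its tissues overlapped under restriction, with 772 to 3436 (median 1343) in liver and 955 to 2064 (median 1506) in backfat. FABP1, the liver fatty acid carrier, had 9.77 and 11.27, with 1 of 10 restricted backfat arrays above the 40th percentile. Without low RFI backfat replicate 5 the restricted contrast was 10.46 and the change of -1.50 was -0.81.

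Cholesterol synthesis widened where it was called. Of 15 genes, 14 were higher in restricted liver and none lower (medians 1.91 and 1.73). MSMO1, a sterol demethylase, was at 9545 to 17856 (median 14134) in restricted liver and 619.7 to 1378 (median 875) in restricted backfat, against 11583 to 17562 (median 15571) and 1181 to 3802 (median 2077) ad libitum (contrasts 3.88 and 2.88, adjusted p of the change 0.00246). FDPS (1.91 and 0.84), ACAT2 (1.51 and 0.33) and CYP51 (2.73 and 1.92) were the others, and 7 members fell with restriction in backfat (14.1% of all genes) and 1 in liver (0.886%). TM7SF2, a sterol reductase, fell in both tissues by 0.96 and kept its contrast of 5.01.

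Endoplasmic reticulum chaperones and secretion genes widened with a liver share. Of 39 genes, 32 were higher (33.1% of all genes) and 2 lower (41%) in restricted liver (medians 1.14 restricted, 0.80 ad libitum). Of the 39, 13 widened (5.27% of all genes) and 1 turned (3.53%), and none narrowed. The liver diet effect was called up in 10 members (1.24% of all genes), as many as among cytosolic ribosomal proteins, and the backfat effect down in 8 (14.1%). The chaperone BiP (HSPA5) had contrasts of 1.71 restricted and 0.84 ad libitum, with diet effects of 0.50 in liver and -0.37 in backfat, both called. MANF (2.28 and 1.27), HYOU1 (2.39 and 1.36), CRELD2 (1.87 and 0.81) and HSP90B1 (1.70 and 1.11), which assist folding or are induced by folding stress, rose in liver, while their backfat effects of -0.19 to -0.10 did not pass. SPCS1, of the signal peptidase, was at 6823 to 10061 (median 8654) in restricted liver and 3065 to 4958 (median 3672) in restricted backfat, against 6934 to 8190.0 (median 7812) and 4764 to 6768 (median 5929) ad libitum. Its tissues did not overlap under either diet, and the contrast was 1.18 against 0.40 (adjusted p = 5.20e-06). DAD1, of the oligosaccharyltransferase, widened to 0.78, against 0.06.

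The proteasome turned in part. Of 37 subunits and regulators, 20 were higher (33.1% of all genes) and 5 lower (41%) in restricted liver (medians 0.33 restricted, -0.15 ad libitum). A change was called for 17 (12.1% of all genes), all towards liver. Of these, 10 turned (3.53% of all genes), 5 widened (5.27%) and 2 narrowed (3.33%). PSMB5, the chymotrypsin-like subunit, was at 1954 to 3617 (median 2983) in restricted liver and 1597 to 2559.9 (median 1997) in restricted backfat, against 2250.3 to 3149.5 (median 2890.0) and 2537 to 4117 (median 3240.0) ad libitum (contrasts 0.54 and -0.25, adjusted p of the change 1.53e-04). The median change was 0.42 over all arrays, but only 3 members were called within numbers 1 and 2 and 4 within numbers 3 to 5. Cytosolic ribosomal proteins changed in 2 of 58 (12.1% of all genes). In restricted liver 8 were higher (33.1% of all genes) and 25 lower, a share near that of all genes (41%). The liver diet effect was called up in 10 of the 58 (1.24% of all genes). Their median contrast of -0.12 was 0.19 after median centring and -0.52 after quantile normalization. The restricted contrast of RPSA, which narrowed, was -0.10, and 0.22 after median centring. That of RPL21, which turned, was 0.05, and -0.36 after quantile normalization.

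Extracellular matrix genes, made largely by stromal cells, were lower in restricted liver in 32 of 34 and higher in 2 (medians -3.20 restricted, -2.99 ad libitum). Of the 9 called changes (12.1% of all genes), all towards backfat, 8 widened (5.27%). COL6A3, a chain of the pericellular collagen VI, was at 435 to 651 (median 525) in restricted liver and 10992 to 18248 (median 12605) in restricted backfat, against 761 to 1157 (median 963) in ad libitum liver and 9933 to 13539 (median 11407) in ad libitum backfat. The liver values of the 2 diets did not overlap. The contrast was -4.60 against -3.56 (change -1.04, SE 0.12, adjusted p = 1.20e-06), liver fell by 0.86 and the backfat effect was 0.18 (adjusted p = 0.159). FBN1 (-4.27 and -3.34) and SPARC (-2.36 and -1.89) also fell in liver. THBS2 (-4.86 and -3.73), the gelatinase MMP2 (-4.78 and -3.78) and the protease CTSK (-3.63 and -2.93) rose in backfat instead. The diet effect was called down in 6 members in liver (0.886% of all genes) and up in 7 in backfat (9.67%). In backfat 5 fell, a share near that of all genes (14.1%). FBLN1, higher in liver, narrowed (1.52 and 2.33). FN1 stayed higher in liver (1.53 and 1.43).

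Of 18 tested glucocorticoid-responsive genes, 6 were higher (33.1% of all genes) and 10 lower (41%) in restricted liver. Medians were -0.53 and -0.19, and 4 changes were called (12.1% of all genes). The diet effect was called in 2 members in liver (2.12% of all genes) and 5 in backfat, a share near that of all genes (23.7%). HSD11B1, which regenerates active cortisol inside cells, was at 16365 to 27706 (median 22598) in restricted liver and 1936 to 4806 (median 3068) in restricted backfat, against 16366 to 24271 (median 18658) and 607 to 1839.7 (median 1186) ad libitum. The backfat ranges of the 2 diets did not overlap, and the contrast narrowed to 2.87, against 4.17 (adjusted p = 2.84e-04). TSC22D3 (GILZ), a glucocorticoid-induced regulator, fell in liver by 0.81 and widened (-1.48 and -0.43). KLF9 fell in liver by 0.67 and turned (-0.61 and 0.30). CDKN1A, the cell cycle inhibitor p21, narrowed (-0.24 and -1.93), and FKBP5, a co-chaperone of the receptor, had a change of -0.66 that did not pass (adjusted p = 0.241).

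Among all genes measured in both tissues, the largest narrowing was that of CKB, brain-type creatine kinase. It was at 100.4 to 351 (median 167) in restricted liver and 162 to 777 (median 352) in restricted backfat, which overlapped, against 61.8 to 247 (median 149.7) and 527 to 2953 (median 1530.0) ad libitum, which did not (contrasts -1.02 and -3.44, adjusted p of the change 8.57e-05). APOO (-0.24 and -1.74) and the mitochondrial pyrimidine nucleotide carrier SLC25A33 (-4.52 and -5.94) narrowed in the same sense. Metallothionein MT-2B (2.88 and 4.46) and the bicarbonate transporter SLC4A4 (0.35 and 1.81), with higher means in liver under both diets, also narrowed.

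The largest widening was that of PGLYRP2, an amidase of bacterial cell wall peptides known as a serum protein from liver. It was at 2232 to 4723 (median 3799.6) in restricted liver and 109 to 247 (median 195) in restricted backfat, against 2167 to 3520.3 (median 2857) and 503 to 2398 (median 1026) ad libitum. The lowest ad libitum backfat array was above the highest restricted one, and the contrast was 4.37 against 1.28 (change 3.09, SE 0.29, adjusted p = 1.06e-08). LOC595122 (2.59 and 0.20), the mitochondrial aldehyde dehydrogenase ALDH1B1 (2.26 and 0.73), the mitochondrial ribosomal protein gene MRPS28 (1.48 and 0.10) and the aquaporin AQP11 (1.64 and 0.31) fell in backfat. The neuronal leucine-rich repeat gene LRRN3 rose in liver by 1.15 (2.03 and 0.62). On the backfat side, PTGES, which makes prostaglandin E2, widened with a backfat rise of 1.25 (-2.07 and -0.76), as did FUCA2, a fucosidase (-3.25 and -1.61), while THBS1 widened (-3.91 and -2.50) with neither diet effect called. Among the turned genes, DPM2, of dolichol phosphate mannose synthesis, had 1.64 and -0.33 and was above the 40th percentile on 3 of 10 restricted backfat arrays.

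**Figure D5:**
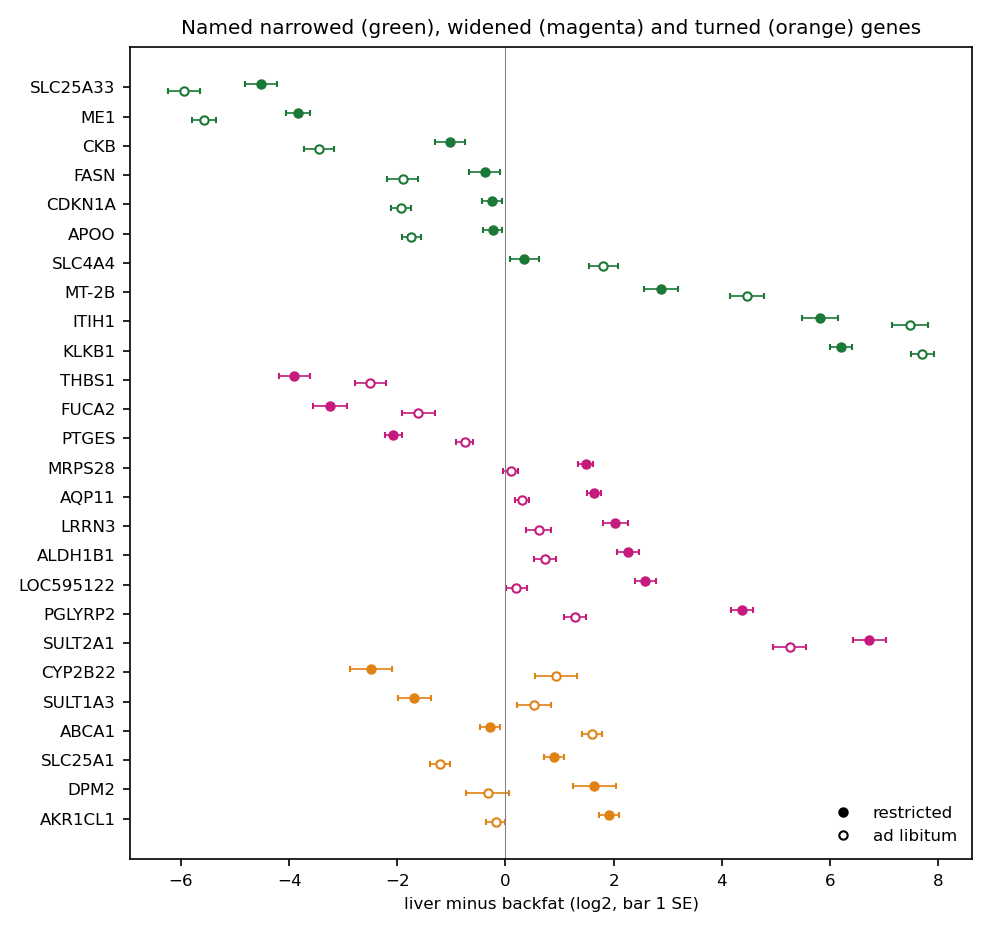
Liver minus backfat contrast (log2, bars 1 SE) of the genes with the largest called changes that were measured in both tissues, restricted (filled) and ad libitum (open). Green genes narrowed, magenta widened and orange turned. PGLYRP2 widened by 3.09 and CYP2B22 turned by -3.42.

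Other contrasts were steady to within narrow limits. Purine salvage enzyme HPRT1 was at 9264 to 12111 (median 10354) in restricted liver and 718 to 1364 (median 1004) in restricted backfat, against 8729 to 11393 (median 10112) and 850.3 to 1144 (median 989) ad libitum (contrasts 3.40 and 3.33, change 0.07, SE 0.11). NIPSNAP1 (3.53 and 3.58), the iron-sulfur cluster protein GLRX5 (3.27 and 3.29), the thioesterase ACOT13 (3.19 and 3.20) and, on the backfat side, PAQR6 (-5.20 and -5.19) and caveolin CAV1 (-4.07 and -4.16) changed by less than 0.1 with an SE under 0.2. They were chosen for this and are given as a description. The liver regulator HNF4A was at 4243 to 10466 (median 5670.4) in restricted liver and 45.9 to 192 (median 96.2) in restricted backfat (contrasts 5.82 and 6.16), and the change of -0.34 did not pass.

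Few differences between the lines in the restricted tissue contrast were called. The contrast of low RFI pigs minus that of high RFI pigs was called for 1 of 17174 probe sets (0.00582%) and for no named gene. In the same limma test, 780 probe sets had an unadjusted p under 0.05. Low and high RFI pigs were not compared within either tissue. The called one has no gene name in the annotation used here. Its contrast was 1.18 in low RFI and -1.32 in high RFI pigs, a difference of 2.50 (limma, adjusted p = 0.0166). Among named genes, the smallest p belonged to TGOLN2, a protein of the trans-Golgi network. Its contrast differed between lines by 0.82 (SE 0.21, limma, adjusted p = 0.488). BGLAP, TMEM254, PON3 and ENPP2 followed, and none of these contrasts was called different between lines. With 5 arrays per tissue and line, a p that misses the threshold does not show that the lines are alike.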

How the data were processed

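Total RNA of liver and backfat was biotin-labelled and hybridised to 1-colour Affymetrix porcine arrays, 1 array per sample. The deposited intensities are the authors' linear values, made with affy and MAS5 per the submitters' processing notes (versions not given in the sources used here). Their trimmed means of 500.09 to 500.15 show that arrays were scaled to one level. Of 24123 probe sets, 124 controls were left out. A single gene symbol was annotated for 10069 probe sets (6765 genes), several for 198 and none for 13732. Every value column belonged to a named sample. Genome positions and promoter or protein sequences are not given, and a planned motif search was not run for lack of a sequence table.

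Values were taken to log2 without an offset and kept where a probe set exceeded the 40th percentile of its array on at least 5 of the 20 arrays of either tissue, which left 17174. One limma model (3.58.1, R 4.3.3; other steps in Python 3.11.15) with 8 groups of tissue, line and diet gave all comparisons, with an intensity trend and Benjamini-Hochberg adjustment at 0.05. On simulated data for the change of contrast over 17174 probe sets, 118 of 200 changed probe sets were recovered, with 4 false calls among 122. The planted changes were of several sizes, pooled in this count. Noise was drawn independently, with no shared effect of pig or replicate number, so the false-call count need not carry over to the data. The number of arrays limits precision. The arrays are separate pigs within a tissue per the labels. The same pigs gave both tissues, and the tests treat the tissues as independent.

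Named genes were the 10 largest contrasts in each direction, the 8 largest one-sided ones, the 10 largest narrowings and widenings, the 6 largest turns, the extreme and most changed members of each list, fixed metabolic genes, the 5 lowest p for the line comparison and the 6 largest steady contrasts. Further list members with called changes were named after their values were seen. Members, gene lists and comparisons were chosen with earlier results of these data known. Alternatives covered scaling, filters, offset, variance prior, subsets of arrays and each array left out. The covariates for control ratios and muscle signal were chosen after seeing the data. Replicate numbers are not shown to pair the tissues. Across 20 liver and backfat pairs of the same number, deviations from group means correlated at 0.0705 to 0.318, and 19 exceeded 0.1.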

Additional observations from a re-analysis of the deposited data

Results flagged for a closer look

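In 92 groups of 10 values tested for a sample far from the rest, 12 were found, and chance alone gives about 1 in 20. On low RFI backfat replicate 5 of the restricted pigs, the hepatocyte marker mean was 11.93, against 5.62 to 8.00 on the other arrays, and CYP2E1 was 11.95 on the log2 scale, against 5.24 to 6.54. Low RFI backfat replicate 2 had an actin 3' to 5' log2 ratio of 3.44, against 1.48 to 2.36. In low RFI backfat replicate 1, SREBF1 was at 5.33, against 6.44 to 7.70, and PPARG at 11.03, against 11.65 to 12.36. In high RFI backfat replicate 5, SLC2A4 was at 4.23, against 5.78 to 7.23, and CYP2B22 at 12.40, against 10.09 to 11.28. PDK4 was at 11.88 in high RFI backfat replicate 3, against 12.82 to 13.76.

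In restricted liver, low RFI replicate 5 had DGAT2 at 9.30, against 11.52 to 12.18, and CYP2B22 at 4.72, against 8.00 to 9.76. High RFI replicate 3 had PCK1 at 10.87, against 12.54 to 14.20. High RFI replicate 5 had LIPE at 3.21, against 1.71 to 2.38, all of them below the 40th percentile.

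Of the 211 genes whose contrast turned, the 6 named for the size of their change were CYP2B22 (-3.42), SULT1A3 (-2.21), SLC25A1 (2.11), AKR1CL1 (2.10), DPM2 (1.97) and ABCA1 (-1.89), each as the restricted minus the ad libitum contrast. The CYP2B22 call held in every leave-one-out fit. The tissue contrast of the 1 probe set called in the line comparison, which has no gene name here, differed by 2.50 between low and high RFI pigs, and leaving out any of 5 arrays ended that call (high RFI liver replicates 3 and 4, high RFI backfat replicate 2, low RFI backfat replicates 1 and 2).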

How the results depend on the processing

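The counts of tissue differences were the steadiest. Restricted calls (12609) ran from 12445 to 12635 when each array was left out in turn, ad libitum calls from 12026 to 12312, over 2-fold ones from 2328 to 2407 higher and 4209 to 4295 lower, and over 8-fold ones from 635 to 654 higher and 627 to 653 lower. A filter passed in both tissues kept 14001 probe sets. It left out 1676 that passed in liver only and 1497 that passed in backfat only. With it, 1441 were over 2-fold higher, 203 over 8-fold higher (640 in the main fit) and 242 over 8-fold lower (642). Most over 8-fold contrasts thus had 1 tissue that did not pass the filter. An offset left 338 over 8-fold lower. Changes of contrast ran from 1214 to 1824 without single arrays (narrowed 347 to 516, widened 541 to 824, turned 326 to 484), diet effects from 178 to 361 in liver and 2849 to 3785 in backfat, and line calls from 0 to 2. Numbers 1 and 2 only gave 219 changes (53 narrowed, 94 widened, 72 turned), 10 diet effects in liver, 889 in backfat and 4 line calls, and numbers 3 to 5 only gave 553 (152, 215 and 186), 98, 2236 and 1. With the replicate number as a block, 2106 changes, 566 liver diet effects and 2 line calls were found. With a correlated replicate block, 2166 changes, of which 1028 widened, were found. In all, 14 of 20 liver arrays correlated best with the backfat array of their own number, as a hint from the data and not the design. Control ratios as covariates, chosen after seeing the data, gave 1123 changes, 488 liver and 1721 backfat diet effects and 3 line calls, and median centring gave 2 line calls. The restricted contrast changed sign for MPC2 (0.27) and RPSA (0.22) after median centring, and for NDUFAB1 (-0.21) and RPL21 (-0.36) after quantile normalization. Median centring adds one amount to every contrast by construction, while quantile normalization moved the median of all probe sets up and those of oxidative phosphorylation and ribosomal proteins down. Of the other gene-level comparisons, 186 lost and 24 gained a call and 18082 kept their side. For the remaining moves, the cause was not tested. Intensities under the 40th percentile limit the size of large contrasts, and the annotation leaves 13732 probe sets unnamed.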

Other observations

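Macrophage markers were higher in restricted liver in 10 of 12, with none lower (medians 2.01 restricted, 2.10 ad libitum). CD5L, a scavenger receptor-like protein secreted by tissue macrophages, was at 7956 to 11247 (median 9544) in restricted liver and 101 to 564 (median 144) in restricted backfat, against 6809 to 10551 (median 9031) and 45.4 to 105 (median 64.3) ad libitum. It was the 1 member with a called change, narrowing to 5.90, against 7.10 (limma, adjusted p = 0.00234). Its ad libitum backfat median lay under the 40th percentile of every ad libitum backfat array (91.5 to 107). Lymphocyte markers were higher in 6 of 9 (median 0.74), but their mean log2 intensity overlapped, with 6.70 to 7.79 in restricted liver and 6.06 to 6.83 in restricted backfat. CD4 was below the 40th percentile on all 10 restricted backfat arrays and above it on 3 liver arrays. Erythroid markers were higher in 3 of 4 and lower in 1, HBB (-0.82). MHC class II genes were 2 higher (33.1% of all genes) and 4 lower (41%) of 10, with SLA-DMA at 2.83 and CIITA at -0.84. Endothelial markers were lower in 8 of 12 and higher in 1, with VWF at -4.25 and TEK at 0.54. Fibroblast and mural markers were lower in 14 of 14 (medians -2.29 and -2.62), with a median change of -0.26. Of their 4 called changes (12.1% of all genes), 3 were widenings and 1 a narrowing. VIM widened (-3.18 and -2.58) and DPT narrowed (-2.25 and -3.05). Skeletal muscle markers were lower in 22 of 22 (medians -3.02 and -2.19). Their median change was -2.27 on arrays numbered 1 and 2 and 0.36 on the others, and none was called.

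Some endocrine and regulatory genes showed large contrasts, and few changes were called. Among 20 tested adipokine, insulin and IGF genes, 6 were higher (33.1% of all genes) and 9 lower (41%) in restricted liver, shares near those of all genes. No change was called among them, against 12.1% of all genes. Leptin (LEP), the satiety hormone of fat, was at 207 to 1499.9 (median 465) in restricted backfat and 117 to 1524 (median 589) in ad libitum backfat, with a diet effect of -0.33 (adjusted p = 0.602). IGFBP2, a carrier of insulin-like growth factors, had contrasts of 5.23 and 4.78, and IGFBP1, above the 40th percentile on 1 of 10 restricted backfat arrays, 6.72 and 7.30. Growth factor IGF1 itself had a contrast of -0.04 that did not pass (adjusted p = 0.866). Of 22 nuclear receptors and transcription factors, 11 were higher (33.1% of all genes) and 9 lower, the latter a share near that of all genes (41%). Medians were 0.39 and 0.41, and KLF9 was the 1 that changed (12.1% of all genes). CEBPA, of adipocyte and hepatocyte differentiation, had -0.63 and -1.08, and SREBF1, which activates lipogenic genes, 0.32 and -0.03. PDK4, which shuts pyruvate dehydrogenase in fasting, had -0.71 and -0.45 with neither diet effect called. DGAT2, of triglyceride synthesis, fell in backfat by 0.97 (adjusted p = 0.0016). Cell cycle genes were 9 higher (33.1% of all genes) and 3 lower (41%) of 19 with no called change, and 9 fell in backfat (14.1%) and 2 in liver (0.886%).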
